A study of Homo sapiens with 12 samples.

Results

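Long noncoding RNA genes make long transcripts that are not translated into a protein of known use, and antisense genes make such transcripts from the strand opposite a neighbouring gene. They were followed here in HK-2, a human cell line that was immortalised from epithelium of the kidney's proximal tubule. The genes were chosen by name alone, as those whose symbol begins with LINC (intergenic RNAs) or SNHG (hosts of small nucleolar RNAs), ends in -AS1, -AS2, -AS3, -IT1 or -DT (antisense, intronic and divergent RNAs), or is MALAT1, NEAT1, GAS5, MEG3, H19 or TUG1. Of 1855 such genes with a probe set of their own on the array, 191 had log2 signals over 4 in 3 or more of the 12 arrays and are described below, among 10574 genes of all kinds that passed the same filter. The 191 comprise 93 antisense names, 54 LINC names, 37 divergent names, 5 snoRNA host genes, and MALAT1 and TUG1, and no -IT1 name passed. A reference gene table lists 189 of them as long noncoding and TUG1 as protein coding, and it does not list TNRC6C-AS1.

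Cultures were exposed for 24 h or 48 h, to Kbr or to vehicle, which gives 4 groups with 3 biological replicates each. Kbr is the name the labels give to a compound used at a high dose, and control cultures received its vehicle. The labels give it no concentration. Each of the 12 Affymetrix arrays holds log2 GCRMA values, which are probe set signals corrected for background binding and normalized across arrays. All groups share the same line and medium, with no genetic change between them. In bulk RNA, fewer cells of a type and less RNA per cell cannot be told apart.

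Long noncoding RNAs are made by the same polymerase as messenger RNA and are often capped, spliced and polyadenylated, but many are kept in the nucleus and are degraded quickly by the nuclear exosome. A divergent transcript starts close to the start of a coding gene and runs the other way, so that the pair shares a promoter region. A small nucleolar RNA (snoRNA) host gene carries snoRNAs, the guides of ribosomal RNA modification, in its introns. Its spliced remainder is often engaged by ribosomes and then removed by nonsense-mediated decay, which makes such host RNAs sensitive to the rate of translation.

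The stretches between 3 coding genes and their divergent or antisense partners are shown because these pairs moved in different ways under Kbr. They are RefSeq sequences of GRCh38.p14 on the strand of the noncoding gene, and the capitals run from the start of the coding gene to the start of the noncoding gene, with 20 bases on each side. The FLVCR1-DT stretch lies at chr1:212858118-212858295, the ZBED5-AS1 stretch at chr11:10858033-10858237 and the ZNF582-DT stretch at chr19:56393514-56393696.
FLVCR1-DT (minus strand): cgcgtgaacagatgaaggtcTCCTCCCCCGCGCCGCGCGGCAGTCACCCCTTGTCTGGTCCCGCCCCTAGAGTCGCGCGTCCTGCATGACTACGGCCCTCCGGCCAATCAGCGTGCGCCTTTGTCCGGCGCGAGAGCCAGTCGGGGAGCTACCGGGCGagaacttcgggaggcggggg
ZBED5-AS1 (plus strand): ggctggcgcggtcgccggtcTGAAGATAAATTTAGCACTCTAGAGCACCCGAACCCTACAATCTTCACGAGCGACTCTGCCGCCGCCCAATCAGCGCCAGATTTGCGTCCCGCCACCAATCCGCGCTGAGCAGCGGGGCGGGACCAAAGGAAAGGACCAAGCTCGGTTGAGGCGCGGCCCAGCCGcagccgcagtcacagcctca
ZNF582-DT (plus strand): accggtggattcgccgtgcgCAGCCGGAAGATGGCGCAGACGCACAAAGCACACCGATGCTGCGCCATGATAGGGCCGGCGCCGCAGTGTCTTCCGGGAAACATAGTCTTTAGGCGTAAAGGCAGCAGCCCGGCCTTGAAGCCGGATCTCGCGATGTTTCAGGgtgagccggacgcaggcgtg
The starts lie 137 bases apart at FLVCR1-DT, 164 at ZBED5-AS1 and 142 at ZNF582-DT, and GC content is 70.2%, 63.9% and 63.4% over the stretches as printed. The starts of 2 snoRNA host genes are shown for their pyrimidine runs, since genes of the translation machinery and many snoRNA hosts are known to begin with a run of C and T. Each shows 80 bases around the annotated start (minus strand, chr20:38435289-38435368 and chr16:2155319-2155398), with the longest run of C and T between 20 bases before and 30 after the start in capitals.
SNHG17: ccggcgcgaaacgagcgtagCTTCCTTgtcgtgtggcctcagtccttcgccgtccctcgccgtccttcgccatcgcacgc
SNHG19: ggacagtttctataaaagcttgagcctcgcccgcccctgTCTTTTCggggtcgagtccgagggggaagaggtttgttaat
The capitals hold 7 bases in each, beginning 20 bases before the SNHG17 start and 1 base before the SNHG19 start. The SNHG17 run thus ends before its annotated start. Counted from the start itself, the run was 0 bases in SNHG17 and GAS5, 1 in SNHG33 and 6 in SNHG19 and SNHG32. SNHG32, which is not shown and was not called under Kbr, had a longest run of 8 bases.

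Facts of the whole series that touch these genes are few. Medians over all probe sets were 2.92 to 2.96 in Kbr arrays and 2.89 to 2.93 in control arrays. Medians over genes, those below the filter included, were 4.38 to 4.54 in Kbr arrays and 4.76 to 4.88 in control arrays. Probe sets over 4 made up 39.06% to 39.46% in Kbr arrays and 39.60% to 39.92% in control arrays. Neither of these last measures overlapped between Kbr and control arrays. Kbr 48 h replicate 3 stood apart, with deviations from the mean of its group of 0.346 (root mean square over the 191 genes), against 0.181 to 0.270 in the other arrays. Ribosomal RNA control probe sets were higher in Kbr arrays (18S by 0.49 and 0.51, 28S by 0.38 and 0.46 at 24 h and 48 h), with an exact permutation p of 0.1, the smallest that 3 against 3 allows. Of 17 markers of a proximal tubule line 8 passed the filter, among them KRT8, KRT18, CDH1 and PAX8, while those of the differentiated tubule (LRP2, CUBN, AQP1, SLC34A1) did not. The log2 of that list's summed signals, in which the brightest genes weigh most, was 15.29 to 15.50 in Kbr and 15.70 to 15.92 in control arrays at 24 h. At 48 h it was 15.01 to 15.25 in Kbr and 15.54 to 15.71 in control arrays. Its genes did not move alike. By log2 fold change at 24 h and 48 h, CDH1 (-2.17 and -2.60), KRT19 (-1.51 and -1.95) and CDH6 (-1.06 and -2.57) were lower in Kbr. KRT8, EPCAM and VIM were lower by less. PAX8 was higher (0.55 and 0.56), as was KRT18 at 48 h (0.43). No leukocyte marker passed. Of 4 fibroblast markers 3 passed (COL1A1, DCN and LUM). The log2 of their list's summed signals was 11.41 to 11.83 in Kbr and 12.36 to 12.88 in control arrays at 24 h. At 48 h it was 10.16 to 10.59 in Kbr and 12.27 to 12.34 in control arrays. The part of these differences in the results below was not tested.

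Most noncoding genes that responded to Kbr were lower. Of the 191, 11 exceeded the filter level in control arrays alone and 2 in Kbr arrays alone. For these a lower or a higher level in Kbr was built into the selection, and they stay in the counts below. At 24 h, 54 of the 191 genes (28.3%) were called at an adjusted p under 0.05 in limma, a linear model fitted over all genes, with 44 lower and 10 higher in Kbr cultures. The count of higher calls rested on single arrays: it was 4, 6 and 5 without Kbr 24 h replicates 1, 2 and 3, and 4 and 5 without control 24 h replicates 1 and 2. It was also 4 with the mean of each gene's probe sets, and 6 with an offset of 32 added to the signals, with a trended prior or with a filter of 6. SE below is that model's standard error of a log2 fold change. Over all genes tested 32.4% were called, 20.0% lower and 12.4% higher. At 48 h, 93 (48.7%) were called, 71 lower and 22 higher, against 59.6% of all genes, 32.8% lower and 26.9% higher. The share called was below that of all genes at both times, and lower calls made up 81.5% of the noncoding calls at 24 h and 76.3% at 48 h, while over all genes 2114 of 3429 and 3466 of 6306 calls were lower. The median log2 fold change was -0.20 at 24 h and -0.23 at 48 h over the 191 genes, and -0.06 at each time over all genes. Under quantile normalization these medians were -0.11 and -0.13 over the noncoding genes and -0.02 and -0.01 over all genes, and with the offset the noncoding median at 24 h was -0.11. Of the lower calls 27 at 24 h and 38 at 48 h were at least 2-fold, against 6.02% and 15.5% of all genes. Of the higher calls 2 and 10 were at least 2-fold, against 1.22% and 7.92% of all genes. With the offset, which shrinks changes in dim genes, 6 and 16 lower and 1 and 4 higher calls were at least 2-fold, and with the mean of probe sets 3 higher calls at 48 h.

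The same shares were read among genes of like signal. Among genes with a mean log2 value of 5 to 8, 4.21% of 95 noncoding genes were called higher and 25.3% lower at 24 h, against 6.80% and 24.8% of 3517 genes of all kinds. At 48 h these shares were 11.6% higher and 36.8% lower, against 19.7% and 37.8%. Among genes over 8, 3 of 25 noncoding genes were called higher and 2 lower at 24 h, against 17.3% and 17.1% of 6126 genes, and 5 were called higher and 8 lower at 48 h, against 33.9% and 29.5%. Among genes at 5 or below the order was the other way. There 29.6% of 71 noncoding genes were called at 24 h, 4.23% higher and 25.4% lower, against 22.8% of 931 genes, 1.93% higher and 20.8% lower. At 48 h 47.9% were called, 8.45% higher and 39.4% lower, against 43.0%, 7.63% higher and 35.3% lower. Genes that passed the filter through control or Kbr arrays alone were not set apart in these shares, among noncoding genes or among all genes. No test was made of these differences in share.

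Kbr and control arrays did not overlap at all for 96 of the 191 genes at 24 h, 69 with the Kbr arrays below and 27 above, while 51.6% of all genes were so separated. At 48 h this held for 101 genes, 74 below and 27 above, against 62.8% of all genes. The 2 times used different arrays, but the fit gave each gene 1 spread for both, so that their calls are linked. Among the 54 genes called at 24 h, 46 (85.2%) were called in the same direction at 48 h, 38 lower and 8 higher. Those 46 were 49.5% of the calls at 48 h. Over all genes the shares were 93.1% and 50.6%. Without the Kbr 48 h array that stood apart the count at 48 h was 87, and without control 24 h replicate 1 the count at 24 h was 35.

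**Figure D1:**
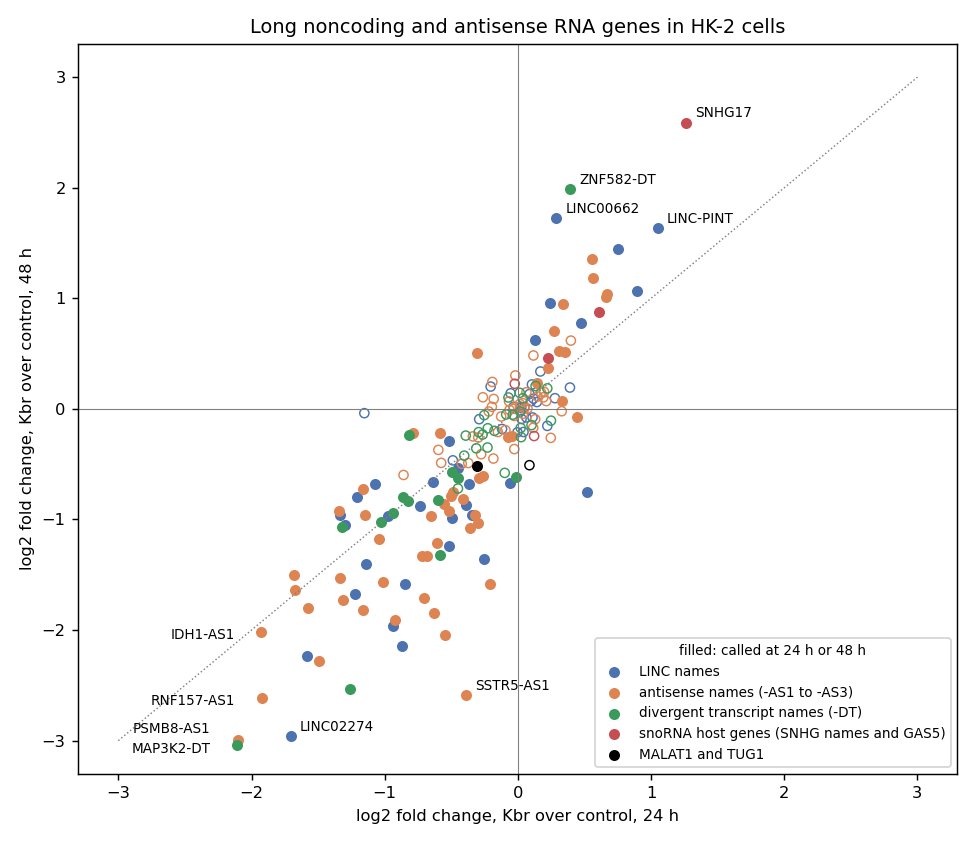
Log2 fold change of Kbr over control at 24 h (horizontal) and 48 h (vertical) for the 191 noncoding RNA genes, coloured by name class, with filled points for genes called at either time. The dotted line marks equal effects. The lowest points at 48 h are MAP3K2-DT, PSMB8-AS1 and LINC02274, all near -3, and the highest is SNHG17 at 2.59.

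By name class, LINC genes were lower in 14 and higher in 3 of 54 cases at 24 h, and lower in 22 and higher in 7 at 48 h. Antisense genes were lower in 21 and higher in 6 of 93 at 24 h, and lower in 36 and higher in 11 at 48 h. Genes with divergent names were lower in 9 and higher in 0 of 37 at 24 h, and lower in 12 and higher in 1 at 48 h. Of the 5 snoRNA hosts 1 was higher at 24 h and 3 at 48 h, and 0 were lower at either time. Over all genes 20.0% were called lower and 12.4% higher at 24 h, and 32.8% and 26.9% at 48 h. At 24 h the lower share was 25.9% of LINC, 22.6% of antisense and 24.3% of divergent names. At 48 h it was 40.7%, 38.7% and 32.4%, the last near that of all genes. Calls either way made up 24.3% and 35.1% of divergent names, against 32.4% and 59.6% of all genes. The differences between classes were not tested.

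**Figure D2:**
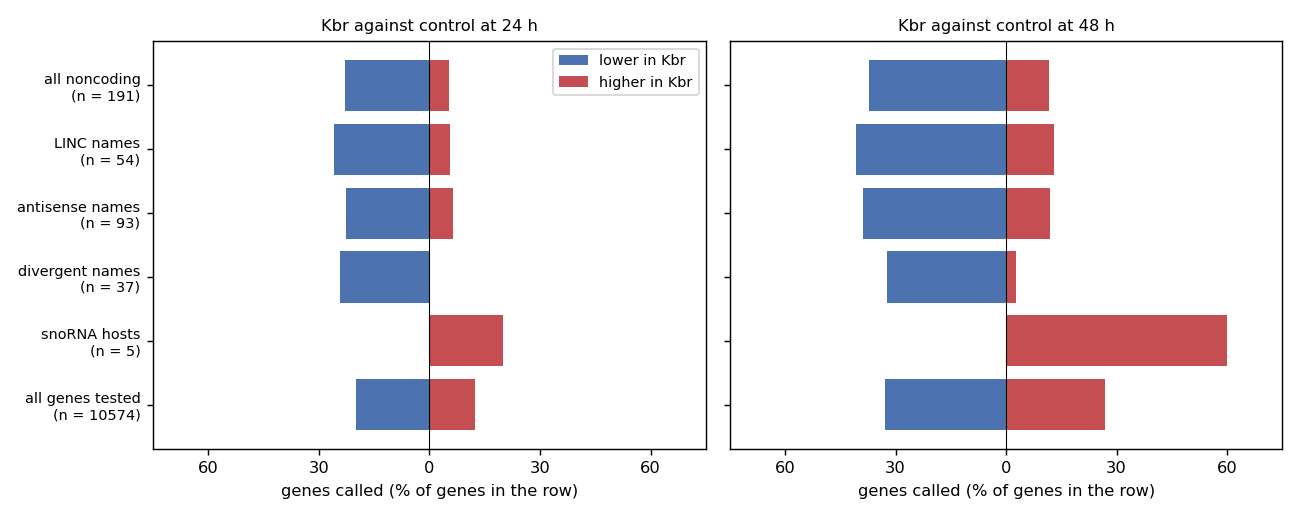
Share of genes called higher (right of 0) and lower (left of 0) in Kbr cultures, as a percentage of each class, at 24 h and 48 h. The divergent names hold 0% higher calls at 24 h and 2.70% at 48 h, and the snoRNA hosts hold only higher calls, 1 and 3 of 5 genes. All genes tested hold 12.4% and 26.9% higher calls and 20.0% and 32.8% lower calls.

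MAP3K2-DT, the divergent transcript of the kinase gene MAP3K2, had the deepest fall. MAP3K2-DT had log2 values of 4.66, 5.48 and 5.15 in Kbr arrays and 7.44, 6.94 and 7.24 in control arrays at 24 h. At 48 h MAP3K2-DT had 4.18, 4.29 and 4.94 in Kbr arrays and 7.63, 7.33 and 7.58 in control arrays. All Kbr arrays lay below all control arrays at both times, by -2.11 (SE 0.24, adjusted p = 0.000232) at 24 h and -3.04 (SE 0.24, adjusted p = 3.24e-06) at 48 h. MAP3K2 itself, at 0.10 (SE 0.22, adjusted p = 0.750) and 0.35 (SE 0.22, adjusted p = 0.186), was not called at either time. With the replicate block MAP3K2 was called at 48 h (adjusted p = 0.00531), as it was with the mean of its probe sets (0.21, adjusted p = 0.0276).

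PSMB8-AS1 lies antisense to PSMB8, an immunoproteasome subunit. PSMB8-AS1 had log2 values of 3.20, 3.68 and 3.33 in Kbr arrays and 5.53, 6.22 and 4.78 in control arrays at 24 h. At 48 h PSMB8-AS1 had 3.09, 2.86 and 3.25 in Kbr arrays and 6.38, 5.74 and 6.07 in control arrays. The groups were apart at both times, and every Kbr array was under the level of 4 used as the filter. PSMB8-AS1 thus passed the filter through control arrays alone, so that a lower level under Kbr was built into its selection, and its values below are a description. The log2 fold change was -2.10 (SE 0.31, adjusted p = 0.000763) at 24 h and -2.99 (SE 0.31, adjusted p = 1.46e-05) at 48 h. PSMB8 fell as well, with -0.37 at 24 h (SE 0.09, adjusted p = 0.0106) and -1.02 at 48 h (SE 0.09, adjusted p = 6.58e-06).

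LINC02274 is an intergenic RNA with a high signal in control cultures. LINC02274 had log2 values of 9.57, 9.94 and 10.39 in Kbr arrays and 11.61, 11.59 and 11.81 in control arrays at 24 h. At 48 h LINC02274 had 8.20, 8.29 and 8.87 in Kbr arrays and 11.30, 11.49 and 11.46 in control arrays. The Kbr arrays were lower at 24 h and lower again at 48 h without overlap, with changes of -1.70 (SE 0.21, adjusted p = 0.000349) and -2.96 (SE 0.21, adjusted p = 1.95e-06). RNF157-AS1 is the antisense partner of RNF157, a ubiquitin ligase. RNF157-AS1 had log2 values of 4.35, 4.49 and 4.23 in Kbr arrays and 7.01, 6.66 and 5.15 in control arrays at 24 h. At 48 h RNF157-AS1 had 4.19, 4.21 and 4.18 in Kbr arrays and 6.83, 7.20 and 6.41 in control arrays. Kbr arrays lay in a narrow band below all controls, and the changes were -1.92 (SE 0.38, adjusted p = 0.00374) and -2.62 (SE 0.38, adjusted p = 0.000161). RNF157 fell by 1.12 at 24 h (SE 0.15, adjusted p = 0.000517) and fell by 1.91 at 48 h (SE 0.15, adjusted p = 3.06e-06).

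C10orf95-AS1 was called lower at both times. C10orf95-AS1 had log2 values of 4.86, 4.97 and 4.94 in Kbr arrays and 6.71, 6.39 and 6.68 in control arrays at 24 h. At 48 h C10orf95-AS1 had 4.95, 4.86 and 5.05 in Kbr arrays and 6.73, 6.09 and 6.97 in control arrays. The groups did not overlap, and the changes were -1.67 (SE 0.19, adjusted p = 0.000232) and -1.64 (SE 0.19, adjusted p = 3.31e-05). The effect at 48 h minus that at 24 h was 0.03 (SE 0.27, adjusted p = 0.962). The coding gene C10orf95 did not pass the filter. IDH1-AS1, antisense to the cytosolic isocitrate dehydrogenase gene, was at -1.93 at 24 h (SE 0.32, adjusted p = 0.00150) and -2.02 at 48 h (SE 0.32, adjusted p = 0.000284), with all Kbr arrays between 2.48 and 2.76 and controls between 3.75 and 5.17. It too passed through control arrays alone, so that its fall was built into the selection, as it was for LINC00339 below. IDH1 was at -0.26 at 24 h (SE 0.10, adjusted p = 0.0696), was called with the replicate block (adjusted p = 0.0270), and fell by 0.42 at 48 h (SE 0.10, adjusted p = 0.00347). With the mean of its probe sets IDH1 was at -0.14 at 48 h, with no call (adjusted p = 0.261).

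Other large falls were spread over LINC, antisense and divergent names. At 24 h the log2 fold change was -1.68 in NRSN2-AS1 (SE 0.29), -1.58 in LINC00339 (SE 0.29), -1.57 in ANXA2R-AS1 (SE 0.23) and -1.49 in ZBED5-AS1 (SE 0.26). At 48 h it was -2.54 in BAIAP2-DT (SE 0.30), -2.28 in ZBED5-AS1 (SE 0.26), -2.24 in LINC00339 (SE 0.29), -2.14 in LINC02482 (SE 0.25) and -2.04 in ZFHX4-AS1 (SE 0.27). SSTR5-AS1 fell by 2.59 (SE 0.25) at 48 h, and it and ZBED3-AS1 passed the filter through the control 48 h arrays alone, so that a difference at 48 h was built into their selection. The adjusted p of these falls was 0.00267 or less. In each of them all 3 Kbr arrays were below all 3 control arrays of the same time.

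Rises were fewer and led by SNHG17, a snoRNA host gene. SNHG17 had log2 values of 9.75, 9.42 and 9.84 in Kbr arrays and 8.36, 8.10 and 8.75 in control arrays at 24 h. At 48 h SNHG17 had 11.59, 11.31 and 10.15 in Kbr arrays and 9.03, 8.09 and 8.16 in control arrays. Kbr arrays were above all control arrays at both times, and Kbr 48 h replicate 3 was the lowest of its group. The log2 fold change was 1.27 (SE 0.36, adjusted p = 0.0211) at 24 h and 2.59 (SE 0.36, adjusted p = 0.000116) at 48 h. Its second probe set gave 1.39 (SE 0.38) and 2.74 (SE 0.38). The call at 24 h was lost in 4 of the fits that left out 1 array, of which the highest adjusted p was 0.0703 without control 24 h replicate 2.

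LINC01128 and LINC00839 rose at both times. LINC01128 had log2 values of 8.002, 8.11 and 8.01 in Kbr arrays and 7.30, 7.28 and 7.29 in control arrays at 24 h. At 48 h LINC01128 had 8.99, 9.13 and 8.37 in Kbr arrays and 7.60, 7.28 and 7.26 in control arrays. LINC01128 arrays of the groups did not overlap, with Kbr 48 h replicate 3 the lowest of its group, and it rose by 0.75 (SE 0.17, adjusted p = 0.00787) and 1.45 (SE 0.17, adjusted p = 4.24e-05). LINC00839 rose by 0.89 (SE 0.13, adjusted p = 0.000841) and 1.07 (SE 0.13, adjusted p = 5.30e-05), and ENTPD1-AS1 by 0.66 (SE 0.11, adjusted p = 0.00159) and 1.01 (SE 0.11, adjusted p = 2.47e-05). ENTPD1, an ectonucleotidase that breaks down extracellular ATP, did not pass the filter.

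LINC-PINT, an RNA known as a p53 target, was dim at 24 h. LINC-PINT had log2 values of 4.67, 5.19 and 3.64 in Kbr arrays and 3.39, 3.44 and 3.52 in control arrays at 24 h. At 48 h LINC-PINT had 6.31, 6.20 and 5.68 in Kbr arrays and 4.44, 4.67 and 4.19 in control arrays. The groups did not overlap, but Kbr 24 h replicate 3 was close to the controls. The rise was 1.05 at 24 h (SE 0.32, adjusted p = 0.0278) and 1.63 at 48 h (SE 0.32, adjusted p = 0.00116). The call at 24 h was lost in 5 fits that left out 1 array, each of the 24 h groups, with 0.71 (adjusted p = 0.0990) without Kbr 24 h replicate 2.

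LINC00662 was called at 48 h and not at 24 h, and its Kbr arrays were uneven. At 48 h LINC00662 had 8.74, 8.55 and 6.71 in Kbr arrays and 6.27, 6.27 and 6.28 in control arrays. Kbr replicate 3 was near the controls and the others far above. The change was 1.73 (SE 0.42, adjusted p = 0.00418), and 2.37 without that array, and at 24 h it was 0.29 (SE 0.42, adjusted p = 0.629). THAP9-AS1 at 48 h had 11.81, 11.61 and 10.46 in Kbr and 10.14, 9.85 and 9.83 in control arrays, a rise of 1.35 (SE 0.27, adjusted p = 0.00140), while THAP9, a gene derived from a transposase, was at 0.08 (SE 0.26, adjusted p = 0.811). ZNF790-AS1 rose by 1.18 (SE 0.19, adjusted p = 0.000319).

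The weakest calls at 24 h were small rises. ZNF790-AS1 rose by 0.57 (adjusted p = 0.0417), DLG5-AS1 by 0.45 (adjusted p = 0.0488), FUT8-AS1 by 0.33 (adjusted p = 0.0289) and TTC28-AS1 by 0.31 (adjusted p = 0.0444), and each lost its call in 5 or more of the fits that left out 1 array and in several other settings. At 48 h DLG5-AS1 was at -0.07 (adjusted p = 0.710) and FUT8-AS1 at 0.08 (adjusted p = 0.548).

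**Figure D3:**
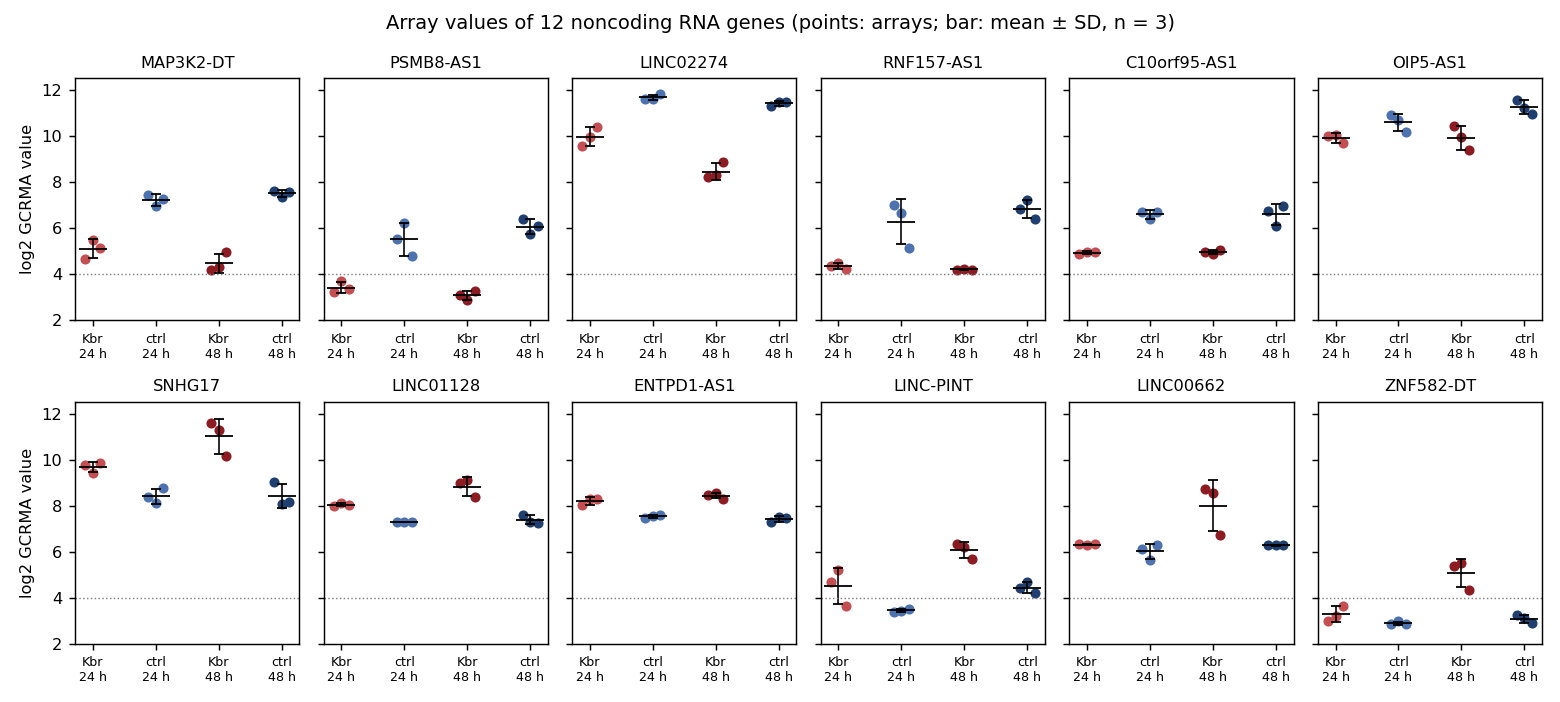
Log2 GCRMA values of 12 noncoding RNA genes in each array, Kbr left of control at each time, with the group mean and SD over 3 arrays and the filter level of 4 dotted. In the upper row the Kbr means lie below the control means at both times, and in the lower row above them. OIP5-AS1, LINC00662 and ZNF582-DT were not called at 24 h. Kbr 48 h replicate 3 is apart from its group for SNHG17, LINC00662 and ZNF582-DT.

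Noncoding genes were compared with the coding genes they are named after, and in 99 pairs both genes had passed the filter. At 48 h 21 pairs were called in the same direction, 16 lower and 5 higher, 5 in opposite directions, 17 for the noncoding gene alone, 34 for the partner alone and 22 for neither. Among the same-way pairs, PSMB8-AS1, IDH1-AS1 and ZBED3-AS1 passed the filter through control arrays alone, and ZNF582-DT through Kbr 48 h arrays alone. The direction of these noncoding genes was thus built into the selection. How many unrelated pairs would be called the same way was not worked out. The partners were called in 60.6% of cases, close to the 59.6% of all genes. At 24 h 10 pairs were called the same way, 9 lower and 1 higher, 3 in opposite ways, 15 for the noncoding gene alone, 19 for the partner alone and 52 for neither. With the replicate number as a block the pairs called the same way at 24 h were 16, and without control 24 h replicate 1 they were 6. Probe positions were not checked, and which strand a probe set reads rests on the platform's annotation.

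The pairs that fell together included RNF157-AS1 and PSMB8-AS1 above. At 48 h NNT-AS1 was at -1.56 and NNT, the mitochondrial transhydrogenase, at -1.54 (SE 0.16). MELTF-AS1 was at -0.96 and MELTF, an iron-binding membrane protein, at -3.49 (SE 0.45). ZFHX4-AS1 was at -2.04 and the homeobox gene ZFHX4 at -1.34 (SE 0.20), and PTPRG-AS1 was at -0.92 and the phosphatase gene PTPRG at -2.50 (SE 0.18). All of these values were called, but PTPRG-AS1 lost its call without Kbr 48 h replicate 3 (-0.66, adjusted p = 0.0816), without control 48 h replicate 2 (adjusted p = 0.0602) and without control 48 h replicate 3 (adjusted p = 0.0714). The NNT, MELTF and PTPRG pairs were chosen after their values were seen. BAIAP2, the actin-regulating partner of BAIAP2-DT, fell by 0.78 (SE 0.23, adjusted p = 0.0140), but was at -0.01 with its unsuffixed probe set and at -0.25 over the mean of its probe sets (adjusted p = 0.121). The BAIAP2 call was also lost when replicate 1 of either 48 h group was left out (adjusted p = 0.0520 for Kbr and 0.0563 for control). ZBED5 fell by 0.41 (SE 0.10) and was at -0.07 over the mean of its probe sets.

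Pairs that rose together included OTUD6B-AS1 and OTUD6B, a deubiquitinase. OTUD6B-AS1 rose by 0.67 at 24 h (SE 0.16, adjusted p = 0.00866) and 1.04 at 48 h (SE 0.16, adjusted p = 0.000213), and OTUD6B by 0.91 (SE 0.14) and 1.42 (SE 0.14). ZNF582-DT passed the filter through the Kbr 48 h arrays alone, so that its rise was built into the selection. At 48 h ZNF582-DT had 5.39, 5.49 and 4.35 in Kbr arrays and 3.26, 3.11 and 2.89 in control arrays. Kbr arrays were above the controls, with replicate 3 lowest, and the change was 1.99 (SE 0.27, adjusted p = 9.50e-05). The zinc finger gene ZNF582 rose by 1.03 at 48 h (SE 0.31, adjusted p = 0.0138), a call lost without Kbr 48 h replicate 2 (adjusted p = 0.0534). It was also lost on leaving out control 48 h replicate 1 (adjusted p = 0.0582).

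The 5 opposed pairs at 48 h were chosen after their values were seen. FLVCR1-DT had 6.80, 6.44 and 6.66 in Kbr arrays and 7.39, 7.70 and 7.87 in control arrays at 48 h, with no overlap, and fell by 1.02 (SE 0.16, adjusted p = 0.000295). FLVCR1, a haem and choline transporter whose start lies in the printed stretch, rose by 1.02 (SE 0.12). The same pair was opposed at 24 h, with FLVCR1-DT at -1.03 and FLVCR1 at 0.71. NIFK-AS1 fell by 1.73 (SE 0.22) while NIFK, a nucleolar partner of Ki-67, rose by 0.85 (SE 0.14), and at 24 h they were at -1.31 and 0.49, both called. The NIFK call at 24 h was lost without Kbr 24 h replicate 2 or 3 or control 24 h replicate 1, with adjusted p between 0.0622 and 0.0714. GARS1-DT fell by 0.83 (SE 0.16) while GARS1, the glycyl-tRNA synthetase, rose by 0.87 (SE 0.28). The annotated starts of this pair lie 16956 bases apart, despite the divergent name. The GARS1 call was lost without Kbr 48 h replicate 1 (0.59, adjusted p = 0.0717) or 2 and without control 48 h replicate 2. OIP5-AS1, a cytoplasmic microRNA-binding RNA, had 10.42, 9.97 and 9.37 in Kbr arrays and 11.58, 11.22 and 10.96 in control arrays at 48 h and fell by 1.33 (SE 0.27, adjusted p = 0.00152), while OIP5, a centromere protein, rose by 0.39 (SE 0.12, adjusted p = 0.0178). The OIP5 call was lost without Kbr 48 h replicate 1 and without control 48 h replicates 1 and 2, with adjusted p between 0.0501 and 0.0741. TTC28-AS1 rose by 0.52 (SE 0.11) while TTC28 fell by 0.38 (SE 0.12), a call lost without Kbr 48 h replicate 3 (adjusted p = 0.0612) and without control 48 h replicate 2 (adjusted p = 0.0631). FUT8-AS1 and FUT8, the core fucosyltransferase, were opposed at 24 h, with 0.33 and -0.83 (SE 0.15).

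**Figure D4:**
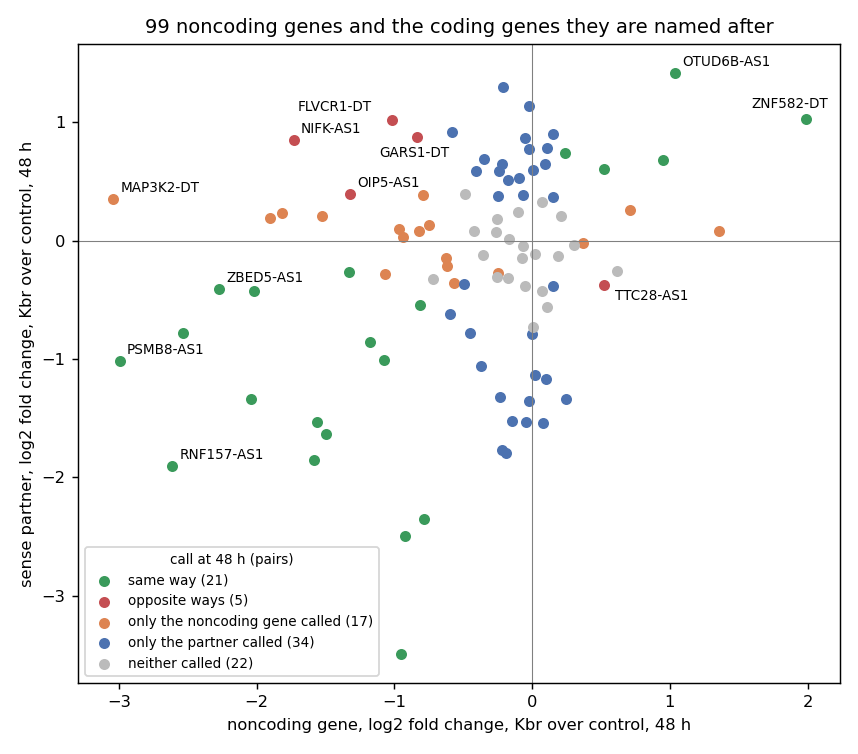
Log2 fold change of Kbr over control at 48 h of 99 noncoding genes (horizontal) and of the coding genes they are named after (vertical), coloured by which of the pair was called. Same-way pairs number 21 and opposed pairs 5, and MAP3K2-DT stands at -3.04 against 0.35 for MAP3K2.

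Annotated starts of both genes were found for 73 of the pairs, all on opposite strands. In 29 of them the RefSeq promoter windows (250 bases before to 50 after a start) overlapped, with a median of 145 bases between the starts. Of these 29 pairs, 5 were called the same way at 48 h, 1 in opposite ways (FLVCR1-DT), 6 for the noncoding gene alone, 11 for the partner alone and 6 for neither. The 5 include the ZBED5-AS1 and ZNF582-DT pairs whose stretches are printed above. ZNF582-DT passed the filter through the Kbr 48 h arrays alone, so that its direction was built into the selection.

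The 5 snoRNA host genes had no call towards lower levels. GAS5 is listed alone on 1 probe set, which is dim. GAS5 had log2 values of 5.04, 4.90 and 4.86 in Kbr arrays and 4.08, 4.56 and 4.33 in control arrays at 24 h. At 48 h GAS5 had 6.12, 5.58 and 5.05 in Kbr arrays and 4.74, 4.94 and 4.46 in control arrays. Kbr arrays were above control arrays at both times, by 0.61 at 24 h (SE 0.24, adjusted p = 0.0702, 0.0415 with the replicate block) and 0.87 at 48 h (SE 0.24, adjusted p = 0.00805). SNHG19 was at 0.23 at 24 h (SE 0.17, adjusted p = 0.333) and rose by 0.46 at 48 h (SE 0.17, adjusted p = 0.0382), a call that was lost without Kbr 48 h replicate 3 (0.27, adjusted p = 0.137), without control 48 h replicate 1 (adjusted p = 0.0866) and without control 48 h replicate 2 (adjusted p = 0.102). SNHG32 was at 0.12 and -0.25 (adjusted p = 0.591 and 0.205) and SNHG33 at -0.02 and 0.23 (adjusted p = 0.953 and 0.451). SNHG33 was called without Kbr 48 h replicate 3, at 0.58 (adjusted p = 0.00625).

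Many host genes are measured on this platform by probe sets that list the host together with its snoRNAs, which cannot be given to 1 gene. Of 21 such probe sets over the filter, covering 13 host genes, 10 were called higher at 24 h and 14 at 48 h, and 0 lower, in a fit of every probe set on its own. In that fit 11.3% of all 22215 probe sets were called higher and 14.4% lower at 24 h, and 26.8% higher and 27.8% lower at 48 h. The log2 fold changes of the 21 ran between -0.01 and 1.31 at 24 h (median 0.65) and between -0.08 and 2.32 at 48 h (median 0.70).

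Genes of the proteins that bind or degrade such RNAs were followed as lists, chosen with earlier results of these data known. Over all genes 12.4% were called higher and 20.0% lower at 24 h, and 26.9% and 32.8% at 48 h. Of 11 tested nonsense-mediated decay factors 8 rose and 1 fell at 24 h and 9 rose and 1 fell at 48 h, with medians of 0.58 and 1.02. These calls were 81.8% and 90.9% of the list, against 32.4% and 59.6% of all genes. RBM8A and MAGOHB, of the exon junction complex, rose by 1.34 (SE 0.13) and 1.36 (SE 0.20) at 48 h, and XRN1, an exonuclease that removes decapped RNA, fell by 1.40 (SE 0.17). With unsuffixed probe sets RBM8A was at -0.10, with no call. Of 10 box C/D snoRNP proteins 4 rose and 1 fell at 24 h and 5 rose and 1 fell at 48 h, with NOP58, a core protein, at 1.08 (SE 0.12), and the assembly factors NUFIP1 at 1.42 (SE 0.11) and RPAP3 at 1.26 (SE 0.14).

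Of 16 nuclear exosome genes 6 rose and 2 fell at 24 h, and 10 rose and 2 fell at 48 h, with medians of 0.31 and 0.49. DIS3, a catalytic subunit, rose by 1.34 (SE 0.15), ZCCHC8, of the nuclear targeting complex, by 1.29 (SE 0.28) and EXOSC3, of the exosome cap, by 1.22 (SE 0.13) at 48 h. With unsuffixed probe sets DIS3 was at -0.11, with no call. The 8 exosome calls at 24 h were 2 with the mean of probe sets, 3 without control 24 h replicate 1 and 4 or 5 without Kbr 24 h replicate 1, 2 or 3 or control 24 h replicate 3. Of 17 paraspeckle proteins, which assemble on NEAT1, 2 rose and 1 fell at 24 h, and 4 rose and 4 fell at 48 h. Their shares called, 17.6% and 47.1%, were below those of all genes. DAZAP1 fell by 0.89 (SE 0.14), TAF15 fell by 0.54 (SE 0.11) and TARDBP rose by 0.63 (SE 0.11) at 48 h. With the mean of its probe sets TAF15 was at 0.081, with no call. The paraspeckle calls at 24 h were 9 with the replicate block and 1 without control 24 h replicate 1, and with the mean of probe sets they were 6 at 24 h and 15 at 48 h. The median over all genes was -0.06 at each time.

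MALAT1 and TUG1 are abundant RNAs of the nucleus, and MALAT1 gathers in nuclear speckles. MALAT1 had log2 values of 11.37, 11.84 and 11.49 in Kbr arrays and 11.20, 11.88 and 11.36 in control arrays at 24 h. At 48 h MALAT1 had 11.83, 11.64 and 11.44 in Kbr arrays and 12.33, 12.35 and 11.76 in control arrays. The groups overlapped at 24 h and also at 48 h. The change was 0.09 at 24 h (SE 0.22, adjusted p = 0.792) and -0.51 at 48 h (SE 0.22, adjusted p = 0.0616, 0.0218 with the replicate block). MALAT1 has 12 probe sets over the filter and they disagreed: at 48 h 224558_s_at fell by 0.78 (SE 0.27, adjusted p = 0.0301) and 224559_at rose by 0.68 (SE 0.24, adjusted p = 0.0342), and at 24 h 224559_at rose by 0.88 (SE 0.24, adjusted p = 0.0220). MAGI2-AS3 was the other gene with probe sets called in opposite directions at 48 h, -1.22 (SE 0.17) and 0.75 (SE 0.28).

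TUG1 fell at 48 h without such disagreement. TUG1 had log2 values of 11.10, 11.18 and 11.001 in Kbr arrays and 11.43, 11.47 and 11.30 in control arrays at 24 h. At 48 h TUG1 had 11.02, 11.10 and 10.89 in Kbr arrays and 11.65, 11.61 and 11.30 in control arrays. Kbr arrays were below control arrays at both times, by a log2 fold change of -0.31 at 24 h (SE 0.11, adjusted p = 0.0609, 0.00677 with the replicate block) and -0.52 at 48 h (SE 0.11, adjusted p = 0.00233). Of its 4 probe sets, 1 was called lower at 24 h and 3 at 48 h. NEAT1 and H19 have no probe set of their own among those used, and MEG3, with 10, did not pass the filter. Over all the noncoding genes, 39 had more than 1 probe set over the filter, and in 12 of them every such set was called the same way at 48 h.

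**Figure D5:**
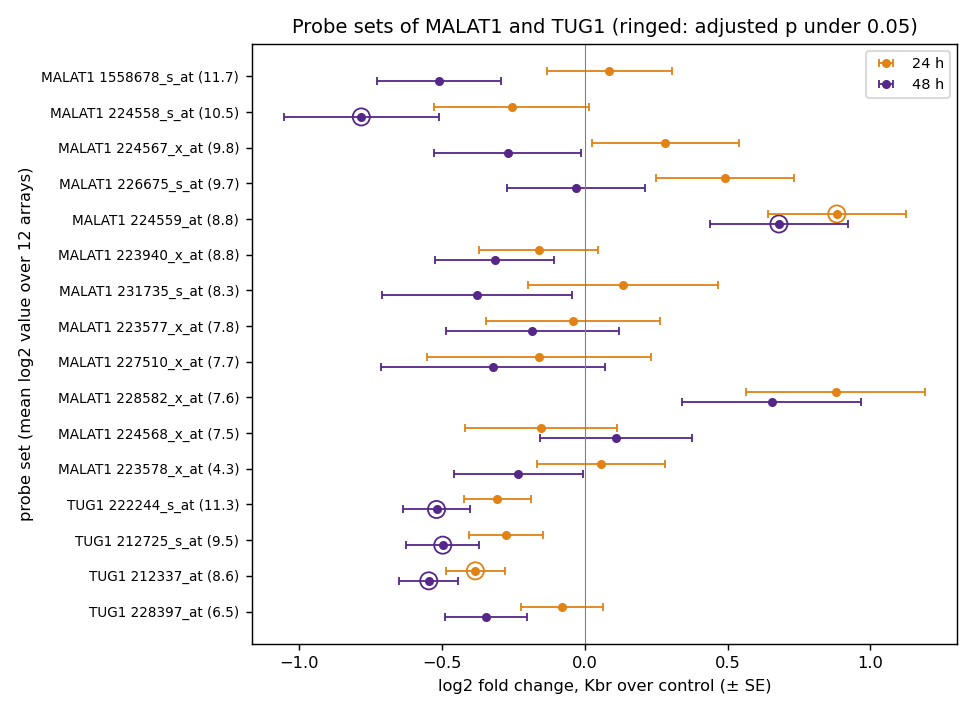
Log2 fold change of Kbr over control with its SE at 24 h and 48 h for the 12 MALAT1 and 4 TUG1 probe sets, listed with their mean log2 value, and ringed where the adjusted p was under 0.05. The TUG1 sets all lie below 0, whereas 224559_at of MALAT1 lies at 0.88 and 0.68 and 224558_s_at at -0.78 at 48 h.

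The Kbr effect differed between 48 h and 24 h in 6 of the 191 genes by the test of the difference, 1 higher and 5 lower, against 5.58% of all genes. With the replicate block 15 were called, against 20.2% of all genes, and without Kbr 48 h replicate 3 also 15. Among the 6, SSTR5-AS1, ZBED3-AS1 and ZNF582-DT exceeded the filter level in 1 group only. A difference between the times was thus built into their selection, and their values are a description. SSTR5-AS1 had the largest difference, -2.20 (SE 0.36, adjusted p = 0.0125). SSTR5-AS1 had log2 values of 2.46, 2.08 and 2.09 in Kbr arrays and 2.90, 2.45 and 2.44 in control arrays at 24 h. At 48 h SSTR5-AS1 had 2.07, 2.48 and 2.46 in Kbr arrays and 5.52, 4.40 and 4.85 in control arrays. Of its arrays only those of control 48 h were raised. ZBED3-AS1 showed the same form, with Kbr arrays between 3.39 and 3.70 at both times and control arrays between 3.37 and 3.98 at 24 h and between 4.77 and 5.48 at 48 h. Its difference was -1.37 (SE 0.27, adjusted p = 0.0209). DHRS4-AS1 was at -0.63 at 24 h, a call lost without Kbr 24 h replicate 1 or 3 or control 24 h replicate 1, and at -1.85 at 48 h, a difference of -1.22 (SE 0.26, adjusted p = 0.0265).

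Time in vehicle alone moved few of these genes. Control cultures at 48 h differed from those at 24 h in 7 of the 191, 6 higher and 1 lower, against 4.03% of all genes, and in 29 with the replicate block, against 20.8% of all genes. With only those 6 arrays in the limma fit 0 were called, and 34 of the 191 had an unadjusted p under 0.05. The comparison shares its arrays with both Kbr comparisons. SSTR5-AS1, at 2.33 (SE 0.25), and ZBED3-AS1, at 1.43 (SE 0.19), passed the filter through the control 48 h arrays alone, so that a rise over time was built into their selection. LINC01315 rose by 0.89 (SE 0.18), LINC01139 by 0.86 (SE 0.12) and PCBP1-AS1 by 0.82 (SE 0.12), and LINC02985 fell by 0.76 (SE 0.16). SNHG32 rose by 0.68 (SE 0.16), a call lost in 10 of the 12 fits that left out 1 array, with Kbr arrays left out as well as controls. LINC01315 lost its call without replicates 1 and 3 of control 24 h and 1 and 2 of control 48 h, and PCBP1-AS1 without control 24 h replicate 3. LINC02985 lost its call without Kbr 24 h replicate 2 and on leaving out each control array except control 24 h replicate 2. Kbr minus control at 48 h was -0.96 in LINC01139 (SE 0.12), -0.99 in LINC01315 (SE 0.18) and -0.81 in PCBP1-AS1 (SE 0.12), all called.

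RefSeq promoter windows were matched for 152 of the 191 genes and searched on both strands for 3 motifs, whose letters can overlap. The antioxidant response element core TGACNNNGC was found in 19.1% of them and in 13.6% of all 27305 windows. Among the noncoding genes it was found in 1 of 18 that were higher at 48 h, 11 of 56 lower and 17 of 78 not called. GAANNTTC, the pair of units of a heat shock element, was in 10.5% against 6.87%, and the cAMP response element TGACGTCA in 1.97% against 1.98%. The longest run of C and T near the start had a median of 7 bases in the 5 snoRNA hosts and 5 in all windows, and none of the 5 reached 10 bases, against 9.41% of all windows.

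The genes just inside the filter, over 4 in exactly 3 arrays, were LINC01134, SSTR5-AS1, ZBED3-AS1 and ZNF582-DT, whose third-highest values ran between 4.01 and 4.77. The 17 just outside, over 4 in 2 arrays, had third-highest values between 3.26 and 3.99. Of the 1664 name-matched genes left out, 1626 exceeded 4 in no array. Of the 191, 141 exceeded it in all 12 arrays, 11 in control arrays alone and 2 in Kbr arrays alone.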

How the data were processed

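RNA of 12 HK-2 cultures was measured on Affymetrix arrays. The authors deposited log2 values that, per the submitters' processing notes, come from GCRMA (version not given in the sources used here). Of 54675 probe sets, 41091 list 1 gene symbol in the platform annotation, and 1801 that list several, 11721 that list none and 62 controls were left out of the gene tests. Each of 19775 genes took its probe set with the highest mean, and 10574 genes with log2 signals over 4 in 3 or more arrays were tested.

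limma 3.58.1 in R 4.3.3 was fitted to the 4 groups together (two-sided, with 8 residual degrees of freedom and a prior of 2.87), with Benjamini-Hochberg adjustment over all tested genes and calls at an adjusted p under 0.05. Tables and plots used Python 3.11.15, pandas 2.3.3 and matplotlib 3.10.9. The fit was tested on simulated data. The number of arrays limits the precision.

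The genes and lists were chosen with earlier results of these data known. Genes were named by rule: MALAT1, NEAT1, GAS5, MEG3, H19, TUG1 and SNHG names, the 10 largest called changes each way at 24 h and at 48 h, the 5 largest each way in the other comparisons, their sense partners, and 3 genes of each list. Markers were given for proximal tubule, other nephron segments, endothelium, leukocytes and fibroblasts. Of other nephron segments only SLC12A1 and of endothelium only TEK passed the filter.

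The labels number the replicates but do not say that arrays of the same number were paired. After group means were removed, 18 same-number pairs correlated between 0.232 and 0.634 and 36 different-number pairs between -0.378 and -0.004. The main fit leaves the replicate number out. A replicate block is therefore given where it changes a call or moves a count by over 1.5 times. With the block 73 of the 191 genes were called at 24 h and 105 at 48 h, against 48.0% and 69.4% of all genes. Alternatives were other filters, probe set choices, scalings, an offset, another prior, only the groups compared, the block, and each array left out. No genome was used, and promoter windows are from RefSeq.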

Additional observations from a re-analysis of the deposited data

Results flagged for a closer look

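The Kbr effect differed between 48 h and 24 h, by limma's test of the difference itself, in 6 noncoding genes. The log2 effect at 48 h minus that at 24 h was -2.20 in SSTR5-AS1 (SE 0.36, adjusted p = 0.0125), -1.49 in ZFHX4-AS1 (SE 0.39, adjusted p = 0.0495), -1.37 in ZBED3-AS1 (SE 0.27, adjusted p = 0.0209), -1.26 in LINC02274 (SE 0.30, adjusted p = 0.0390), -1.22 in DHRS4-AS1 (SE 0.26, adjusted p = 0.0265) and 1.60 in ZNF582-DT (SE 0.38, adjusted p = 0.0392). SSTR5-AS1, ZBED3-AS1 and ZNF582-DT exceeded the filter level in 1 group only, so that a difference between the times was built into their selection. ZFHX4-AS1 had 5.97, 6.09 and 6.76 in Kbr and 6.38, 6.93 and 7.16 in control arrays at 24 h, which overlap, and 5.17, 5.38 and 5.81 in Kbr and 7.09, 7.74 and 7.65 in control arrays at 48 h, which do not. All but SSTR5-AS1 lost the call in at least 3 of the fits that left out 1 array.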

How the results depend on the processing

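Of 2819 alternative values behind 131 fold changes, 2580 kept their direction and side of the threshold, 196 lost the call, 22 gained it and 21 changed sign. The sign changes were in MALAT1 at 24 h (-0.051 without Kbr 24 h replicate 2 and -0.054 without control 24 h replicate 1, of a range up to 0.29 with 1 array left out), in MALAT1 at 48 h (0.68 with unsuffixed probe sets), and in SNHG33. SNHG33 was at 0.020 under quantile normalization and ran from -0.10 to 0.034 with 1 array left out at 24 h, and from -0.063 to 0.58 at 48 h. With 1 array left out MAP3K2 at 24 h ran from -0.059 to 0.29, THAP9 at 48 h from -0.12 to 0.32, DLG5-AS1 at 48 h from -0.12 to 0.013 (0.10 under quantile normalization) and the difference between the times in C10orf95-AS1 from -0.22 to 0.22 (-0.11 with the mean of probe sets). RBM8A at -0.10 and DIS3 at -0.11 with unsuffixed probe sets, and TAF15 at 0.081 with the mean of probe sets, changed sign at 48 h. A filter of log2 over 6 left 30 calls at 24 h, 52 at 48 h, 3 for the difference between the times and 4 for control cultures over time, with 6 and 8 pairs called the same way at 24 h and 48 h, since 96 noncoding genes were then tested. The mean of probe sets gave 13 same-way pairs at 48 h. With no filter 2 genes differed between the times. The replicate block gave 15 for that difference, 29 for control cultures over time and 16 same-way pairs at 24 h. Among the 131 fold changes run with the block, it added the calls of GAS5, TUG1 and IDH1 at 24 h and of MALAT1 and MAP3K2 at 48 h and changed no other. With only the groups compared, limma called 0 for control cultures over time (34 at an unadjusted p under 0.05). Leaving out 1 array gave 35 to 60 calls at 24 h (35 without control 24 h replicate 1), 80 to 97 at 48 h, 1 to 15 for the difference between the times, 3 to 13 for control cultures over time, and 6 to 10 and 16 to 22 same-way pairs at 24 h and 48 h. The difference between the times moved by over 1.5 times with each array except control 48 h replicate 3, to 15 without Kbr 48 h replicate 3 and to 3 or fewer without the others. Control cultures over time gave 4 without control 24 h replicate 1, 3 without control 24 h replicate 3, 4 without control 48 h replicate 1 and 13 without control 48 h replicate 3. Scalings kept more lower than higher calls: quantile normalization gave 39 lower and 13 higher at 24 h and 68 and 27 at 48 h. Over all genes it gave 1915 lower and 1503 higher calls at 24 h, and 3312 and 3014 at 48 h. The cause of these changes was not tested where no smaller gene set accounts for it.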
